A study of Homo sapiens with 6 samples.

Results

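HAMP and SLC40A1 encode a hormone and its receptor. HAMP encodes hepcidin, the peptide by which the liver controls iron in the body, and SLC40A1 encodes ferroportin, the iron exporter that hepcidin binds. The pair was chosen by gene symbol and makes up 2 of the 9717 gene symbols in the deposited table, each with 1 row (NM_021175 for HAMP, NM_014585 for SLC40A1). It was picked with the difference between the groups already known, so the values of both genes are given as a description without a test. RNA was sequenced from 3 libraries of Huh7 cells carrying an shRNA against ABL1, which encodes a tyrosine kinase of the cytoplasm and nucleus, and from 3 libraries of Huh7 cells carrying a scrambled shRNA. Huh7 is an established human liver cancer line, and all 6 libraries came from cells grown in DMEM and taken 1 week after puromycin selection, so that the control cells also carried a hairpin and went through selection. The sources used here do not give the number of ABL1 hairpins or say whether replicates were separate cultures. The p-values therefore weigh the difference between the groups only against the spread of these libraries within each group, and that spread may be technical.

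Hepatocytes secrete hepcidin when iron is plentiful or in inflammation. Iron acts through bone morphogenetic proteins (BMPs), their receptors and the SMAD transcription factors, and inflammation through interleukin 6, JAK kinases and STAT3. Hepcidin binds ferroportin on the cell surface, blocks iron export and leads to the destruction of the exporter, so that iron stays inside the cell. The ferroportin mRNA is also under iron control: its 5′ end carries an iron-responsive element, a stem-loop bound by the iron regulatory proteins, which block translation when iron is scarce. The ferritin mRNAs carry the same element.

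Promoter and stem-loop sequences are shown because genes described further on belong to the same controls. The marked letters are sequence matches, and binding or activity was not measured here. The first pair holds the 250 bases before the RefSeq start of each gene (build GRCh38.p14), chr19:35282278-35282527 on the plus strand for HAMP and chr2:189580787-189581036 on the minus strand for SLC40A1, written 5′ to 3′ with motif matches in capitals.
HAMP: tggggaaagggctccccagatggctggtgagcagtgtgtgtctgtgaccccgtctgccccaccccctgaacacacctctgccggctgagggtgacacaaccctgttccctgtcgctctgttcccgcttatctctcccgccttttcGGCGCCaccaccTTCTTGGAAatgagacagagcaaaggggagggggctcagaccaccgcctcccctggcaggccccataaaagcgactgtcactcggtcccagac
SLC40A1: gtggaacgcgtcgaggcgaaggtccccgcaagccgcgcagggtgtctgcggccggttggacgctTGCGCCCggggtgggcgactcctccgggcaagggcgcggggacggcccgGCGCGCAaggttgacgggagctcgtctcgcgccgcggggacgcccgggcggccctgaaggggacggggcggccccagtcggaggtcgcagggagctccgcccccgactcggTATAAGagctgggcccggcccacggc

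In the HAMP promoter the capitals mark GGCGCC, the core of the BMP response element, at 105 to 100 bases before the start, and a match to the STAT letters TTCNNNGAA at 93 to 85 bases before it. GGCGCC was present in 16.4% of 35116 RefSeq promoter windows of the same length and TTCNNNGAA in 6.57%, on either strand, and 0.538% of the windows held both. In the SLC40A1 promoter the capitals mark TATAAG, at 26 to 21 bases before the start, and matches to the core of the metal response element, the site of the zinc-sensing factor MTF1 (TGCGCNC or TGCACNC). The metal response letters lie at 186 to 180 bases before the start on the coding strand and at 137 to 131 on the other strand. They were present in 24.8% of windows, and TATAAG or TATAAA in 14.2%. The search found neither GGCGCC nor TTCNNNGAA in this window of SLC40A1. GENCODE 29 places the start of HAMP 182 bases and that of SLC40A1 101 bases further upstream. By those starts the marked HAMP letters and the TATAAG of SLC40A1 lie inside the transcribed sequence, and the metal response letters lie before it.

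The second group compares the stem-loop of SLC40A1 with those of the ferritin heavy chain gene FTH1 and the ferritin light chain gene FTL, taken from the 5′ untranslated regions of their GENCODE 29 transcripts. The search, on the sense strand, was for a C, then 5 bases, the loop letters CAGTGN and 5 bases that pair with those before the loop (G with T allowed), and the capitals mark the loop.
SLC40A1: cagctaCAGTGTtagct
FTH1: cttcaaCAGTGCttgga
FTL: cttcaaCAGTGTttgga

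The SLC40A1 stem-loop begins at base 205 of a 427-base leader, that of FTH1 at base 65 of 235 and that of FTL at base 41 of 207. Of 8197 transcripts in the table with an annotated 5′ untranslated region, of whatever length, 9 held the pattern (0.110%). ADGRD1, CCDC116, PGLYRP2, PRPF18 and ZER1 were among the others.

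The recovered read totals were 6651413 to 7952645 in the ABL1 shRNA libraries and 7713451 to 10487862 in the scrambled libraries. For the targeted gene, transcript NM_007313 had 14, 9 and 9 reads in the ABL1 shRNA libraries against 88, 64 and 76 in the scrambled libraries. The ABL1 transcript NM_005157 went the other way, with 18, 17 and 24 reads in the ABL1 shRNA libraries against 11, 6 and 11 in the scrambled libraries. It was the less abundant ABL1 row in the scrambled libraries and the more abundant in the ABL1 shRNA libraries. Across the table the groups differed widely, since 51.9% of 8600 tested transcripts passed limma's test at an adjusted p under 0.05 (24.5% higher and 27.4% lower in ABL1 shRNA cells) and the groups did not overlap for 58.9%. Rises made up 47.2% of the calls with the authors' scale factors and 63.6% after scaling to equal library totals, which moved the median log2 difference of all transcripts by 0.17. The 8 hepatocyte markers with a row summed to 418519 to 466510 normalized counts in the ABL1 shRNA libraries and 508430 to 576151 in the scrambled libraries. Group means were at least 1406 for each of the 7 tested. FGB, with too few reads to be tested, averaged 14.4 in ABL1 shRNA cells and 4.95 in scrambled cells. Of the 7 tested markers 5 fell and 0 rose (median log2 difference -0.42), among them APOA2 (-0.97), APOC3 (-0.81) and ALB (-0.42). The fall of APOB (-0.20) kept its call in only 6 of 16 alternative runs. With equal totals 4 of the markers fell and 1 rose, where 1699 of all 8600 tested transcripts fell and 2967 rose. With quantile normalization 2 of the markers fell and 1 rose, where 2132 of all tested transcripts fell and 2292 rose. Summed levels of 5 endothelial markers were 138 to 153 normalized counts in the ABL1 shRNA libraries and 195 to 222 in the scrambled libraries, where 3 fell and VWF (1.08) rose. The 6 stellate cell and fibroblast markers summed to 13259 to 14609 in the ABL1 shRNA libraries and 8912 to 9908 in the scrambled libraries, most of it COL1A2 (0.62), and went apart, since PDGFRA (1.84), LUM (2.11) and COL3A1 (1.54) rose and COL1A1 (-1.03) fell. LYZ, the 1 macrophage marker measured, had 6520.1 to 7464 normalized counts in the ABL1 shRNA libraries against 5656 to 6275 in the scrambled libraries. None of these markers was at 0 in any library, and their part in the results was not tested.

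HAMP was lower in the ABL1 shRNA cells. It had 545, 442 and 406 reads in the ABL1 shRNA libraries against 1390, 1001 and 923 reads in the scrambled libraries. Scaled with the authors' factors these became 533, 499.6 and 419 normalized counts against 1159, 1122 and 866. Every ABL1 shRNA library lay below every scrambled library, and replicate 3 was the lowest of its group in both. The means were 484 ± 58.7 normalized counts in ABL1 shRNA cells and 1049 ± 159 in scrambled cells (SD, n = 3 each). HAMP therefore stood at 46.1% of its scrambled level, 2.17 times lower, a difference of -1.11 on the scale log2(normalized count + 1). Taken library against library, the ratio of ABL1 shRNA to scrambled ran from 0.361 to 0.616. In bulk RNA, fewer cells expressing a gene and less of its RNA per cell cannot be told apart.

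SLC40A1 was lower by a wider margin. It had 790, 658 and 652 reads in the ABL1 shRNA libraries against 3555, 2473 and 3139 reads in the scrambled libraries. The normalized counts were 773, 744 and 673 in the ABL1 shRNA libraries against 2964, 2772 and 2945 in the scrambled libraries. Again the groups did not overlap, and the replicates lay closer together than those of HAMP, with a coefficient of variation of 7.06% in ABL1 shRNA cells and 3.66% in scrambled cells, where HAMP had 12.1% and 15.2%. The means were 729.7 ± 51.5 normalized counts in ABL1 shRNA cells and 2894 ± 106 in scrambled cells (SD, n = 3 each), 3.97 times lower, with library ratios of 0.227 to 0.279 and a log2 difference of -1.99. With libraries scaled to equal totals the log2 differences were -0.94 for HAMP and -1.81 for SLC40A1.

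**Figure D1:**
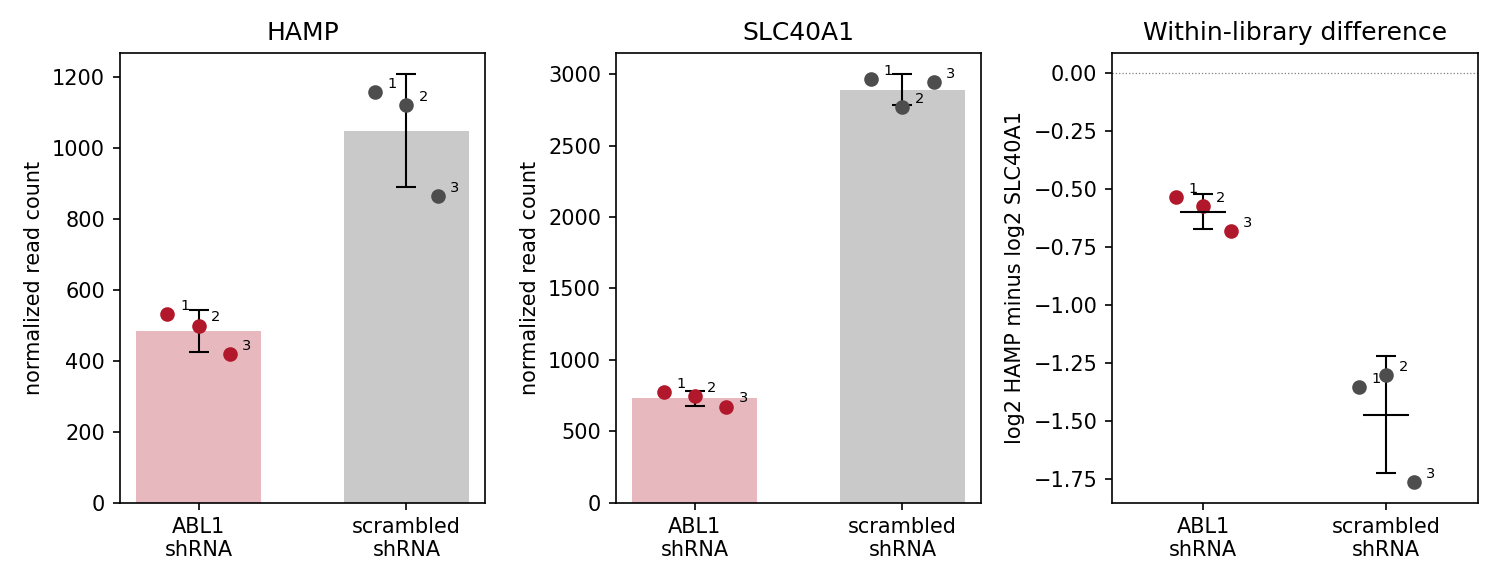
Normalized read counts of HAMP and SLC40A1 (left and middle, bars for the mean, error bars for the SD) and the difference of their log2 levels within each library (right, horizontal line for the mean, error bars for the SD) in ABL1 shRNA and scrambled shRNA cells, with points numbered by replicate. Both genes are lower in all 3 ABL1 shRNA libraries, SLC40A1 by more, so the within-library difference is closer to 0 there.

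The balance between hormone and exporter transcripts was set out library by library. Log2 HAMP minus log2 SLC40A1 was -0.53, -0.57 and -0.68 in the ABL1 shRNA libraries against -1.35, -1.30 and -1.76 in the scrambled libraries. The means were -0.60 ± 0.08 in ABL1 shRNA cells and -1.47 ± 0.25 in scrambled cells (SD, n = 3 each), a shift of 0.88 towards HAMP. This quantity does not depend on how libraries are scaled to each other. It depends in part on scrambled replicate 3, where HAMP was low and SLC40A1 was not, and without that library the shift was 0.73. Per kilobase of the GENCODE 29 transcript (588 bases for HAMP, 3442 for SLC40A1) HAMP was the more abundant RNA in every library. Its level per kilobase was 3.87 ± 0.20 times that of SLC40A1 in ABL1 shRNA cells and 2.13 ± 0.35 times in scrambled cells. With exons cut to the RefSeq bounds (406 and 3330 bases) these ratios were 5.43 ± 0.29 in ABL1 shRNA cells and 2.98 ± 0.49 in scrambled cells.

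Among the 8142 tested transcripts with a length, the level of HAMP per kilobase stood at percentile 91.7 in ABL1 shRNA cells and 96.3 in scrambled cells, and that of SLC40A1 at 72.8 in ABL1 shRNA cells and 91.1 in scrambled cells. Of all 8600 tested transcripts, 668 (7.77%) had a log2 difference below that of HAMP and 142 (1.65%) one below that of SLC40A1. Each gene has 1 curated RefSeq transcript, so its row was not divided among isoforms, and in GENCODE 29 no exon of another gene overlaps the 3 exons of HAMP (chromosome 19, 35282346 to 35285143, plus strand) or the 8 exons of SLC40A1 (chromosome 2, 189560579 to 189580887, minus strand).

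**Figure D2:**
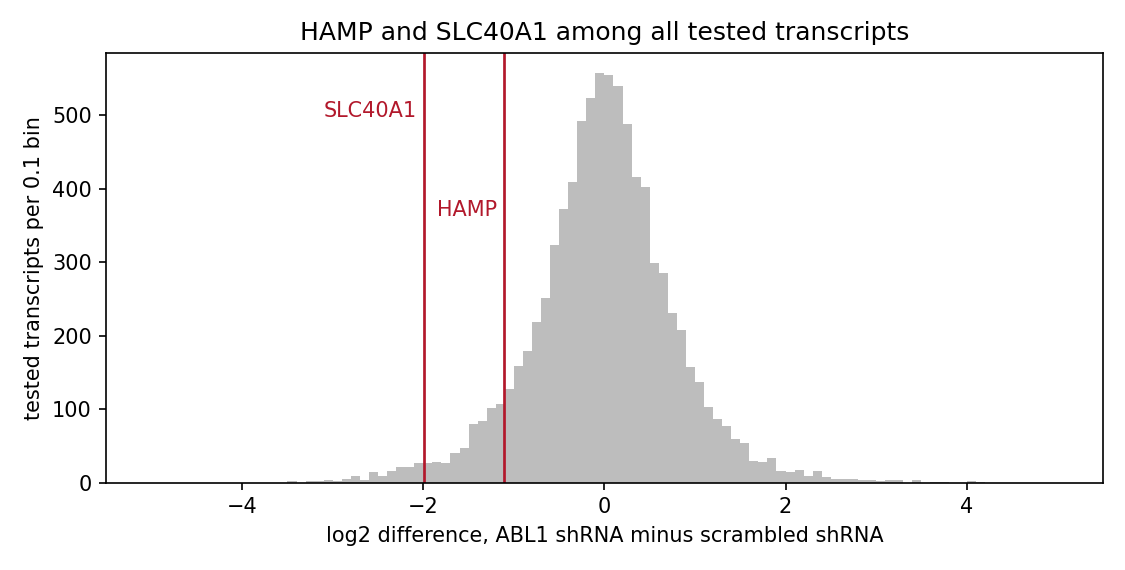
Histogram of the log2 difference (ABL1 shRNA minus scrambled shRNA) of all 8600 tested transcripts, in bins of 0.1, with red lines at HAMP and SLC40A1. HAMP lies at -1.11 in the lower flank and SLC40A1 at -1.99 in the lower tail.

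The transcripts whose pattern over the 6 libraries lay nearest to each gene were found by the root mean square difference of log2 levels, each taken relative to its own scrambled mean, among 4294 transcripts at or above the median level. The nearest to HAMP was EPO, the hormone that drives red cell production, at a distance of 0.07. EPO had 388, 368 and 267 normalized counts in the ABL1 shRNA libraries against 791, 771 and 627 in the scrambled libraries, with replicate 3 again the lowest of each group. PLEKHA2 (0.09), ARHGEF39 (0.11), the spliceosome protein gene SNRPA1 (0.11) and ZG16 (0.12) followed. Nearest to SLC40A1 were RPL7L1 (0.08), the ceramide kinase gene CERK (0.09), UAP1 (0.09), the spectrin gene SPTBN1 (0.09, transcript NM_178313) and the growth regulator MYC (0.10).

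The upstream arm of hepcidin control was read next. Of 15 listed genes of BMP and SMAD signalling 10 had a row and 6 enough reads to be tested, of which 2 rose and 1 fell, where 24.5% and 27.4% of all tested transcripts did. The type II BMP receptor gene BMPR2 rose, with 1283, 1522 and 1435 normalized counts in the ABL1 shRNA libraries against 730.3, 695 and 822 in the scrambled libraries (log2 difference 0.92, SE 0.09, limma adjusted p = 4.72e-06). SMAD4, the partner shared by all receptor-activated SMADs, also rose (0.29). BMP2, a ligand that induces hepcidin, fell by 0.35 to 2196 ± 301 normalized counts in ABL1 shRNA cells, against 2791 ± 296 in scrambled cells (SD, n = 3 each, limma adjusted p = 0.0136), with overlapping groups. The call of BMP2 was lost without ABL1 shRNA replicate 1 (-0.28, limma adjusted p = 0.0639), without scrambled replicate 3 (-0.29, 0.0707) and with equal totals (-0.17, 0.170), within a range of log2 values below 0 throughout.

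The receptors BMPR1A (0.18) and ACVR2B (0.17) did not pass, although both did with equal totals (0.36 and 0.34) or quantile normalization (0.29 and 0.27), and ACVR2B did without scrambled replicate 1 (0.22, limma adjusted p = 0.0385). TFR2, which senses transferrin iron in hepatocytes, had 907 ± 118 normalized counts in ABL1 shRNA cells and 912 ± 150 in scrambled cells (log2 difference -0.0032, SE 0.12). BMP6, the main iron-regulated ligand in the liver, averaged 4.79 normalized counts in ABL1 shRNA cells and 1.65 in scrambled cells, too few to be tested. The median log2 difference of the 6 tested genes was 0.17, against 0.0018 for all tested transcripts. With equal totals 4 of the 6 rose and 0 fell. On that scale 2967 of all 8600 tested transcripts rose and 1699 fell, and their median was 0.17.

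Of 17 genes listed as brakes on hepcidin or as SMAD targets 9 had a row and 7 were tested, of which 4 rose and 1 fell, beside 24.5% and 27.4% of all tested transcripts. ID3, a direct SMAD target, had 4089, 3998 and 4899 normalized counts in the ABL1 shRNA libraries against 2420.3, 2386 and 2375 in the scrambled libraries (log2 difference 0.85, SE 0.08, limma adjusted p = 3.43e-06). All 3 ABL1 shRNA libraries exceeded the scrambled ones, where the groups did not overlap for 58.9% of all tested transcripts. ID2, another target of the pathway, averaged 2735 ± 42.8 in ABL1 shRNA cells and 2739 ± 310 in scrambled cells (SD, n = 3 each). BAMBI, a decoy receptor of the family, rose by 0.35 and TWSG1, an extracellular BMP-binding protein, by 0.80. TWSG1 had 867, 975 and 842 normalized counts in the ABL1 shRNA libraries against 509, 519 and 511 in the scrambled libraries. FURIN, the protease that releases mature hepcidin from its precursor, had 65.2 ± 21.1 normalized counts in ABL1 shRNA cells and 15.3 ± 2.05 in scrambled cells on a row that is 1 of its 8 curated transcripts (log2 difference 1.97, limma adjusted p = 0.000135). GDF15, a stress cytokine reported to restrain hepcidin, fell, with 421, 359 and 404 against 1178, 842 and 989 (log2 difference -1.33, SE 0.12, limma adjusted p = 1.60e-06). ERFE, a hepcidin suppressor made by red cell precursors, had 23.6 ± 5.63 in ABL1 shRNA cells and 21.6 ± 2.51 in scrambled cells and did not pass. The median of the 7 genes was 0.35.

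The inflammatory arm of hepcidin control followed. Of 12 genes listed as interleukin 6 and STAT3 inputs or liver factors 4 had a row, of which 2 rose and 2 fell, where 51.9% of all tested transcripts changed. CEBPD, a transcription factor of the acute phase response, had 314, 226 and 243 normalized counts in the ABL1 shRNA libraries against 919, 667 and 748 in the scrambled libraries (log2 difference -1.57, SE 0.14, limma adjusted p = 1.66e-06). SOCS3, the feedback inhibitor that STAT3 induces, had 9.78, 4.52 and 3.09 against 25.01, 29.1 and 31.9 (log2 difference -2.24, SE 0.42, limma adjusted p = 0.00073), on a row that is 1 of its 3 curated transcripts. Each ABL1 shRNA library lay below each scrambled one for both genes, where the groups did not overlap for 58.9% of all tested transcripts. The kinases JAK1 (0.35) and JAK2 (0.89) rose. JAK1 was read from 1 of 8 curated transcripts and JAK2 from 1 of 9.

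Of 17 acute phase genes 11 had a row and 9 were tested: 7 fell and 1 rose, where 27.4% of all tested transcripts fell and 24.5% rose. The median log2 difference of the 9 was -1.33, and -1.16 with equal totals. The orosomucoids ORM1 (-2.33) and ORM2 (-2.74), which share sequence, fell furthest. LBP (-1.49), which binds bacterial lipopolysaccharide, the protease inhibitor SERPINA3 (-1.33), the fibrinogen chain FGA (-0.85), the complement regulator C4BPA (-0.74) and CP (-1.48) also fell. FGG, another fibrinogen chain, rose by 0.68 (limma adjusted p = 0.0248), a call lost without ABL1 shRNA replicate 2 (0.47, limma adjusted p = 0.111), without scrambled replicate 1 (0.43, 0.102) and with the rows of each gene summed (0.51, 0.0804). The remaining fibrinogen chain, FGB, was not tested for lack of reads. It averaged 14.4 normalized counts in ABL1 shRNA cells and 4.95 in scrambled cells, and the groups did not overlap. HPX, the heme carrier hemopexin, had a log2 difference of -0.17 that passed only without ABL1 shRNA replicate 3 (-0.22, limma adjusted p = 0.0414). The groups did not overlap for any of the 9, as for 58.9% of all tested transcripts. Of the 7 tested hepatocyte markers 5 fell in the same libraries, ALB, APOA2 and APOC3 among them. APOB, also among the 5, fell by 0.20 (limma adjusted p = 0.0466), a call kept in only 6 of 16 alternative runs. AFP (-0.10) and TTR (0.19) did not pass. With quantile normalization 2 of the markers fell and 1 rose. The part of these markers in this result and in that of HAMP was not tested. HAMP, itself an acute phase gene, was not counted in this list.

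**Figure D3:**
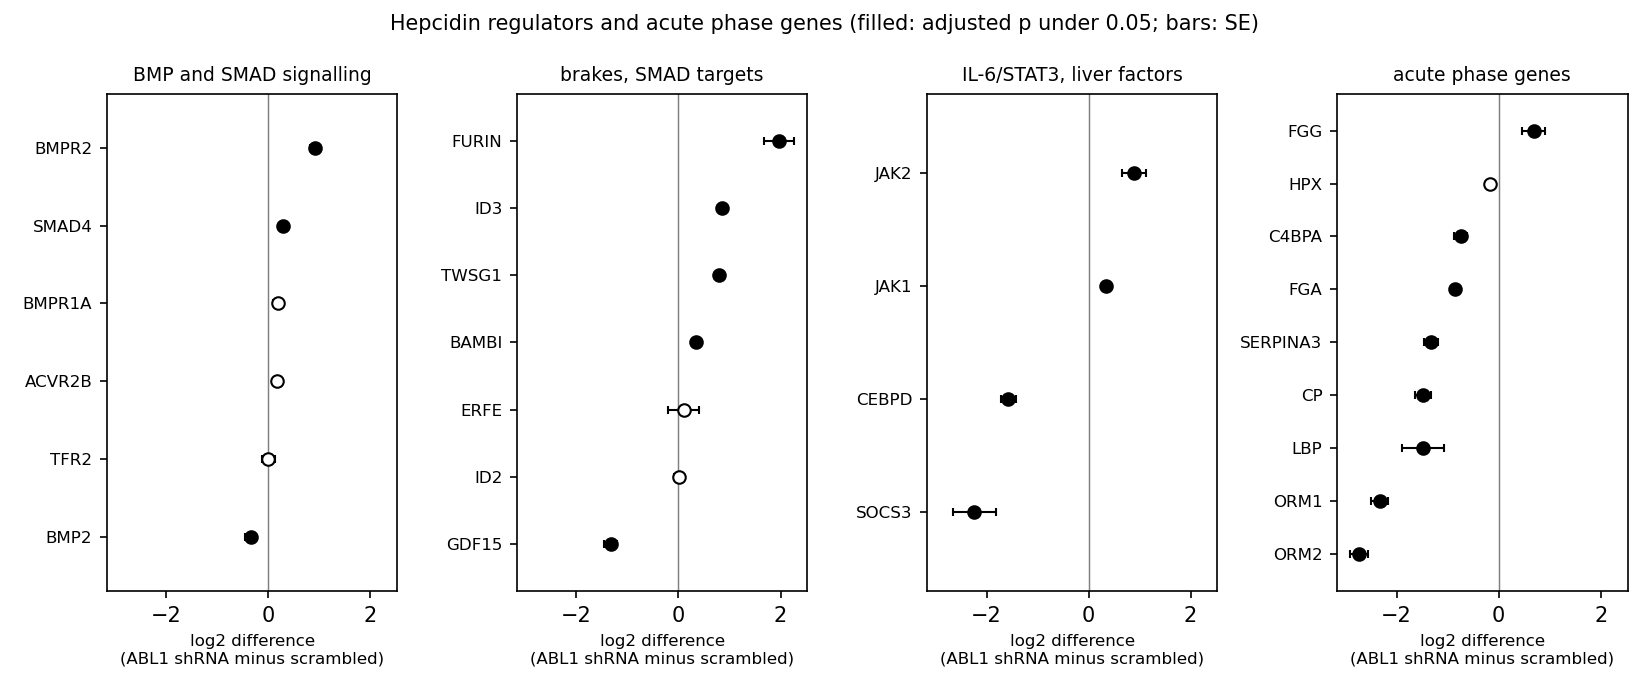
Log2 difference (ABL1 shRNA minus scrambled shRNA) with its SE for the tested members of 4 lists around hepcidin, filled points for limma adjusted p under 0.05 and open points for the rest. Acute phase genes lie mostly left of 0, while BMPR2, ID3, TWSG1, BAMBI and FURIN lie right of it.

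Around ferroportin, 12 of 19 listed partners and regulators had a row and 9 were tested, of which 5 rose and 4 fell, against 24.5% rising and 27.4% falling in the whole table. The 4 that fell were EPAS1, CP, FTH1 and FTL. The lists overlap, since CP is counted in the acute phase list too and FTH1 and FTL in the cellular iron list too. MTF1, for which matching letters are marked in the SLC40A1 promoter, rose. It had 506, 537 and 549 normalized counts in the ABL1 shRNA libraries against 252, 279 and 254 in the scrambled libraries (log2 difference 1.02, SE 0.10, limma adjusted p = 3.08e-06). The groups did not overlap, as for 58.9% of all tested transcripts. Its targets MT1X (2.78) and MT2A (2.21), metallothioneins with near-identical relatives, rose, as did the zinc exporter SLC30A1 (0.98). Heme oxygenase HMOX1, which frees iron from heme and like ferroportin is induced by heme, had 871, 887 and 981 against 565, 485 and 491 (log2 difference 0.83, SE 0.09, limma adjusted p = 1.18e-05). SLC40A1 itself was lower in the same libraries. EPAS1, the hypoxia factor HIF-2α that induces ferroportin in the intestine, fell to 2845 ± 195 normalized counts in ABL1 shRNA cells, against 4124 ± 149 in scrambled cells (log2 difference -0.54, limma adjusted p = 6.26e-05).

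CP encodes ceruloplasmin, the ferroxidase that oxidises the iron ferroportin exports. It had 81.2, 79.1 and 67.1 normalized counts in the ABL1 shRNA libraries against 182, 235 and 226 in the scrambled libraries (log2 difference -1.48, SE 0.16, limma adjusted p = 6.40e-06), on 1 of its 2 curated transcripts. The exporter and its ferroxidase were both lower in every ABL1 shRNA library than in any scrambled one. Such a lack of overlap, in either direction, was seen for 58.9% of all tested transcripts.

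The ferritin genes, whose stem-loops are printed above, fell. FTL had 64739, 58238 and 58333 normalized counts in the ABL1 shRNA libraries against 106526, 108405 and 108787 in the scrambled libraries (log2 difference -0.84, SE 0.08, limma adjusted p = 2.81e-06). FTH1 had 67407, 65191 and 62382 against 83222, 91439 and 88397 (log2 difference -0.43, SE 0.08, limma adjusted p = 0.000627). No library of one group reached the other, as for 58.9% of all tested transcripts. Both genes have many processed pseudogenes, which makes both values uncertain if reads were split with them.

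Of 19 genes of cellular iron uptake, storage and its control 10 had a row and 9 were tested, of which 1 rose and 4 fell, the ferritins among them, a share called near the 51.9% of all tested transcripts. IREB2, which encodes iron regulatory protein 2, had 3389, 3782 and 3305 normalized counts in the ABL1 shRNA libraries against 2304, 2481 and 2479 in the scrambled libraries (log2 difference 0.53, SE 0.08, limma adjusted p = 9.20e-05). TF, the plasma iron carrier transferrin and also 1 of the hepatocyte markers, fell by 0.44, but by 0.02 with quantile normalization (limma adjusted p = 0.741). PCBP1, an iron chaperone, fell by 0.21 (limma adjusted p = 0.0316). That call was lost with equal totals (-0.03) and without ABL1 shRNA replicate 1 (-0.23) or 2 (-0.16) or scrambled replicate 1 (-0.17) or 3 (-0.21), at limma adjusted p = 0.0526 to 0.693, and the sign turned with quantile normalization (0.14). The importers SLC11A2 (-0.54) and SLC39A14 (-0.66) had under 30 normalized counts in every library and did not pass, although SLC39A14 did without ABL1 shRNA replicate 2 (-1.07, limma adjusted p = 0.0403). The mitochondrial importers SLC25A37 (0.19) and SLC25A28 (-0.16) did not pass.

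HMOX1 also belongs to the heme list. Of 17 genes of heme synthesis, transport and breakdown 8 were tested, of which 4 rose and 1 fell, with 24.5% rising and 27.4% falling over all transcripts. BLVRB, a biliverdin reductase, had 2129 ± 157 normalized counts in ABL1 shRNA cells and 706 ± 57.7 in scrambled cells (SD, n = 3 each, log2 difference 1.59, limma adjusted p = 3.73e-08). The lysosomal heme transporter SLC48A1 (0.75) and the synthesis enzyme UROS (0.44) also rose, and CPOX (-0.50), another enzyme of synthesis, fell.

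Of 22 listed genes of iron-sulfur cluster assembly 8 were tested, 3 rose and 3 fell (51.9% of all tested transcripts changed), and their median of 0.00036 lay close to the 0.0018 of all tested transcripts. ISCA1 (0.43), the ferredoxin FDX1 (0.41) and the chaperone HSPA9 (0.20) rose, and CIAO1 (-0.35), the co-chaperone HSCB (-0.41) and GLRX5 (-0.24) fell. HSPA9 lost its call without ABL1 shRNA replicate 1 (0.22) or 2 (0.16) or scrambled replicate 1 (0.17) or 3 (0.19). GLRX5 lost it without the same 4 libraries (-0.23, -0.20, -0.21 and -0.22) and with equal totals (-0.06) or quantile normalization (-0.14), and HSCB without scrambled replicate 2 (-0.32) and with equal totals (-0.23).

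**Figure D4:**
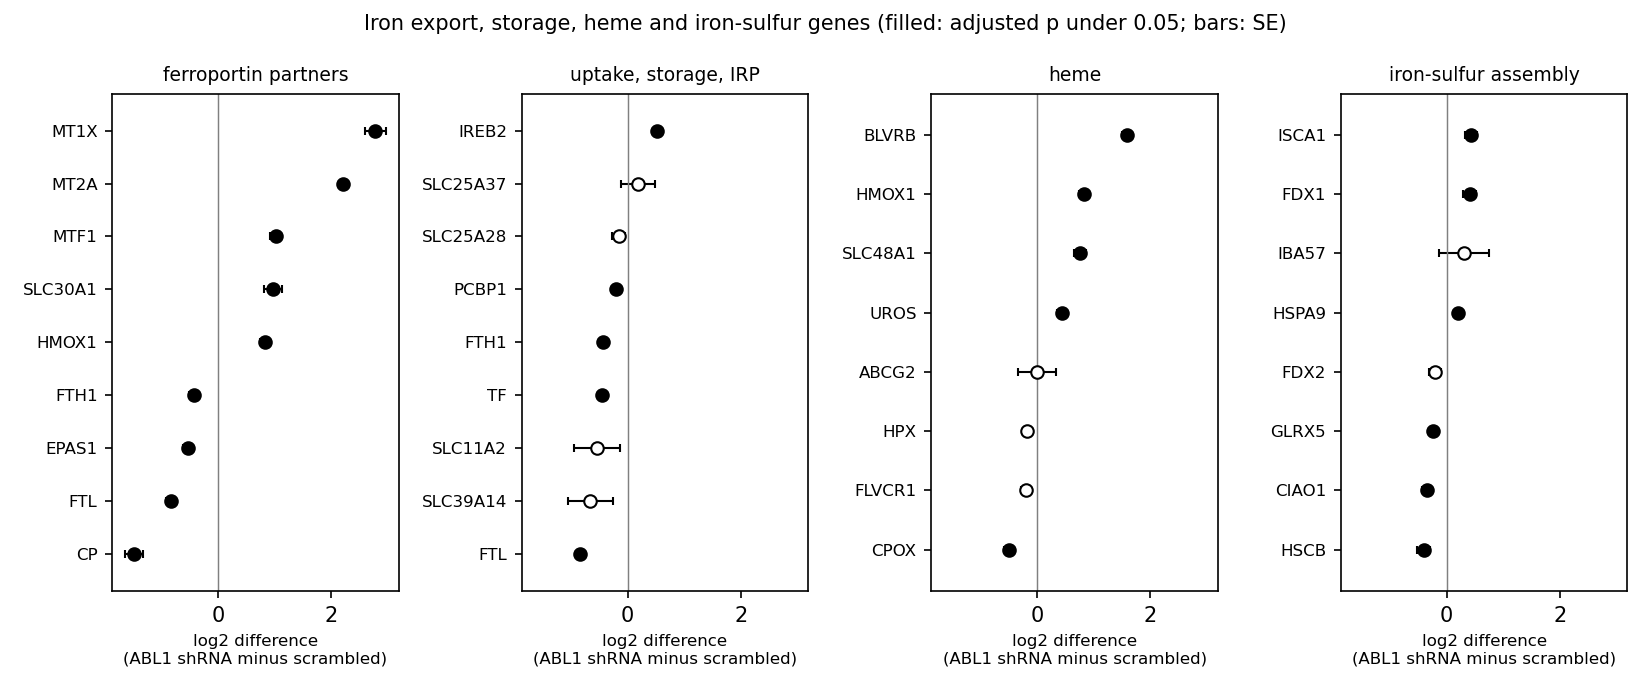
Log2 difference (ABL1 shRNA minus scrambled shRNA) with its SE for the tested members of 4 lists of iron genes, filled points for limma adjusted p under 0.05 and open points for the rest. The metallothioneins and BLVRB lie furthest right of 0, followed by MTF1 and SLC30A1, and CP and FTL furthest left.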

How the data were processed

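The deposited table holds 10191 rows, each a RefSeq transcript, with 1 signal value per library. Per the submitters' processing notes HISAT2 2.0.4, HTSeq 0.6.1 and build hg38 were used, and the sources used here do not give annotation, strand setting or row filter. As the values show, the deposited signal is a scaled square root: its square, divided by 1 step per library, less 3/8, gave whole reads within 0.05 for 100% of rows. Reads times the library's relative step are the normalized counts. Transcripts with a mean of at least 10 were tested (8600) with limma 3.58.1 in R 4.3.3 on log2(normalized count + 1), with a mean-variance trend, two-sided, Benjamini-Hochberg adjusted, no replicate block, threshold 0.05. Log2 differences are ABL1 shRNA minus scrambled and understate changes of low transcripts.

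The members and lists were chosen with earlier results of these data known. A list gene was read from its tested row of highest mean. For a gene with several curated RefSeq transcripts that row is only 1 of them, also where the text gives no count. Named genes were both members, ABL1, tested members of the hepcidin, acute phase, ferroportin and cellular iron lists, up to 4 per direction of the others, and the 5 nearest patterns. BMP6, the cell type markers and other transcripts with stem-loop letters were named after their values were seen, and 1 such transcript is not reported here. Genes listed without a row were not analysed here. Sequences are from RefSeq (GRCh38.p14) and GENCODE 29 (GRCh38), which matched both members. Simulated data for this comparison had 8485 transcripts tested and 50 changed per fold. The share recovered was 4% for 1.25-fold changes, 64% for 1.5-fold, 84% for 2-fold and 90% for 4-fold, with 8 of 129 calls false. Far fewer transcripts were changed there than the 51.9% called in the real data, and all were given the same replicate spread. These shares therefore need not hold for the real comparison. Chi-square per degree of freedom within groups was 5.89 to 10.6, so no library was a duplicate.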

Additional observations from a re-analysis of the deposited data

How the results depend on the processing

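HAMP and SLC40A1 stayed lower in ABL1 shRNA cells under every alternative run to pseudocount, scaling, variance model and omitted library. Row summing and the replicate block could not change their log2 differences, since each gene has 1 row and the block is balanced. Leaving out 1 library gave log2 differences of -1.24 to -1.01 for HAMP, -2.03 to -1.93 for SLC40A1 and 0.73 to 0.96 for the shift of their balance. SLC40A1 moved by more than the log2 SD of its replicates pooled over both groups, 0.08, to -1.81 with equal totals and to -1.89 with quantile normalization. With equal totals the BMP and SMAD list had 4 members higher and 0 lower and the iron-sulfur list 1 lower. In that run 2967 of all 8600 tested transcripts were higher and 1699 lower. With quantile normalization the BMP and SMAD list had 4 higher, the cellular iron list 2 lower, and PCBP1 turned to 0.14. There 2292 of all 8600 tested transcripts were higher and 2132 lower. A mean of at least 50 left 1 of the interleukin 6 and STAT3 inputs lower, and summing rows per gene left 0 acute phase genes higher. Over omitted libraries, 0 to 1 BMP and SMAD genes were lower, 0 to 1 acute phase genes higher and 1 to 2 heme genes lower, and 3932 to 4146 transcripts were called in all, against 4460 with all 6. Whether same-numbered libraries shared a culture or day could not be decided, since deviations within a group so small are not independent. Deviations of same-numbered libraries from group means correlated at r = 0.05, 0.08 and 0.08 across transcripts. Not every library correlated best with its own number. The replicate block raised the calls to 4821. Of the tested members of the gene and marker lists, it changed the call of the hepatocyte marker TTR only, which then passed (0.19, limma adjusted p = 0.0382). Depth limits transcripts with few reads, such as BMP6, SOCS3 and the importers SLC11A2 and SLC39A14. The rows of SOCS3, SLC11A2 and SLC39A14 are also 1 of 3, 1 of 28 and 1 of 10 curated transcripts, and this was not separated from depth.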
